A study of Mus musculus with 12 samples.

Results

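Digestive enzyme transcripts of the exocrine pancreas were followed through dendritic cells (DCs) sorted from pancreas, duodenum and liver. The 34 transcripts, chosen by symbol as products of pancreatic acinar cells, were found once each among the 55401 genes of the deposited tables. The cells were migratory DCs from B6 mice of 6 to 8 weeks, with no treatment or transgene in the labels, and the same gate served every tissue: CD103+ CD11b- cells among live leukocytes (CD45+) without lineage markers and with CD11c and high MHCII. Each tissue gave 4 polyA RNA libraries, pancreas first, then duodenum and liver, and each library pooled 2 mice. Levels are TPM as the authors deposited them, a unit that corrects for transcript length and library size. Library totals were 220.9 to 356.1 M estimated counts (M for mega).

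Acinar cells fill zymogen granules with inactive precursors of proteases and with active amylase and lipases, and empty them into the duodenum after a meal. The proteases become active in the gut lumen once enterokinase cuts trypsinogen, and trypsin then cuts the others. Their RNAs are among the most abundant in the pancreas.

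In every library the sorted cells carried the genes of conventional type 1 DCs. The summed level of 9 such genes was 1851 to 2019 TPM in pancreas, 1563 to 2104 TPM in duodenum and 2050 to 2269 TPM in liver. Xcr1, a chemokine receptor of these cells, was at 92.8, 97.8, 94.7 and 82.7 TPM in pancreas libraries 1 to 4.

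The acinar transcripts were abundant in pancreas DC libraries and scarce in the others. They summed to 12118, 2099, 5487 and 5709 TPM in pancreas libraries 1 to 4, to 50.4, 48.1, 41.1 and 56.1 TPM in duodenum and to 33.2, 36.2, 30.4 and 37.7 TPM in liver. Means were 6353 ± 4183 TPM in pancreas, 48.9 ± 6.22 TPM in duodenum and 34.4 ± 3.25 TPM in liver (SD, n = 4 each). Reg2 alone, a Reg protein gene, averaged 13.3 TPM in duodenum and 17.4 TPM in liver. Without 7 members that other tissues also make (Zg16, Gp2, Spink1, Rnase1, Klk1, Nupr1 and Tff2), the duodenum mean was 31.4 TPM. Reg2 was not among these 7, so that mean still holds it. The lowest pancreas library was far above the highest of the other 8, and the highest pancreas library held 5.77 times the sum of the lowest. As a share of all TPM the sum made up 1.21%, 0.21%, 0.549% and 0.571% of pancreas libraries 1 to 4. In pooled RNA, few cells with many of these transcripts and many cells with few cannot be told apart.

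Against duodenum, 30 of 34 members were higher in pancreas and 0 were lower (edgeR quasi-likelihood test, Benjamini-Hochberg adjusted p under 0.05 over 44624 genes). Of all genes tested, 3.76% were called higher and 3.94% lower in that comparison, 7.7% in either direction. Against liver, 31 members were higher and 0 lower by the same test, where 0.681% of all genes were called higher and 0.426% lower, 1.11% in either direction. At an unadjusted p under 0.05, and by DESeq2 and limma, 0 members were lower in pancreas in either comparison. The median log2 difference was 7.68 over the members and 0.09 over all genes against duodenum, and 7.97 over the members and -0.01 over all genes against liver, also with Amy2a1 set at its bound. Both comparisons use the same pancreas libraries, and 30 members were called in both, as were 0.397% of all genes. In 31 members every pancreas library exceeded all 8 other libraries, a pattern shown by 1.16% of genes tested. Prss1, Reg2 and Ctrc were the exceptions.

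**Figure D1:**
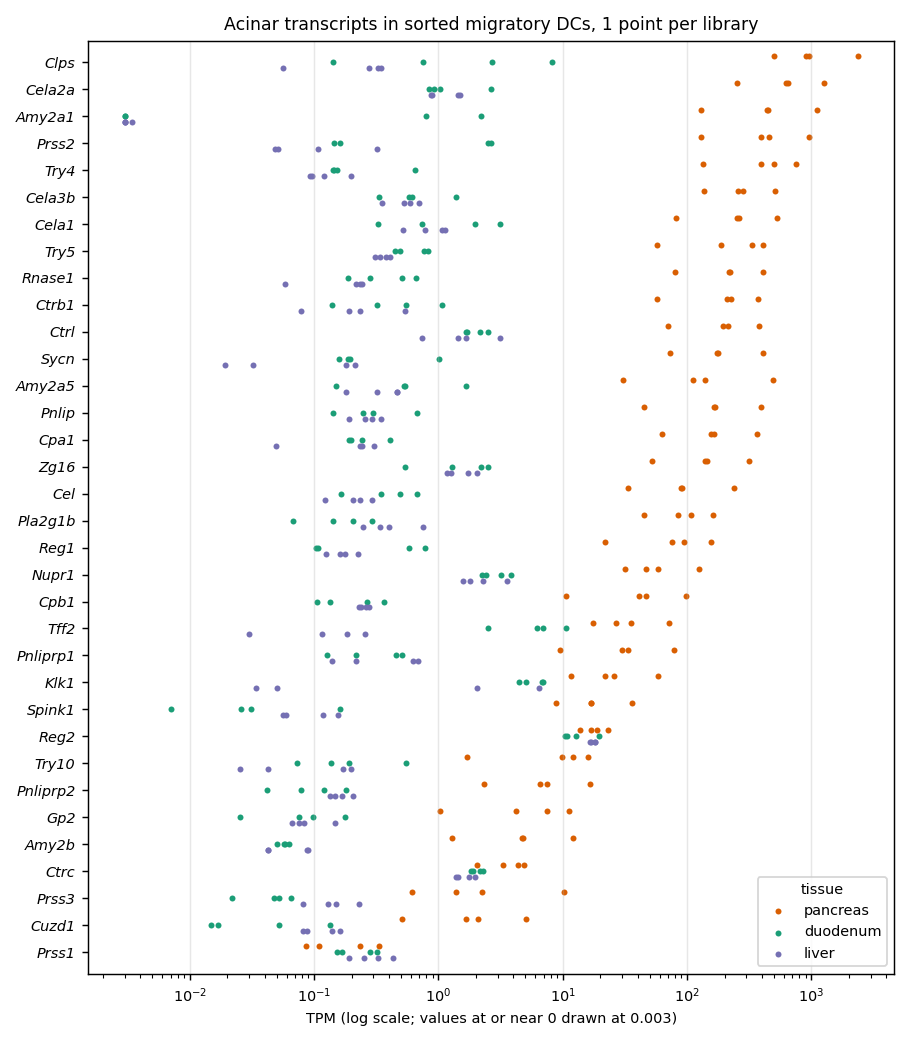
Deposited TPM of the 34 acinar members on a log axis, with 1 point per library, rows ordered by the pancreas mean and values at or near 0 drawn at the left edge. Pancreas points lie to the right of all duodenum and liver points in 31 rows and overlap them for Prss1, Reg2 and Ctrc.

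Colipase, encoded by Clps (ENSMUSG00000024225), anchors pancreatic lipase to fat droplets and was the most abundant member in each pancreas library. It was at 2358, 496, 952 and 911 TPM in pancreas libraries 1 to 4, at 2.71, 0.141, 0.756 and 8.12 TPM in duodenum and at 0.344, 0.0562, 0.327 and 0.276 TPM in liver. No pancreas value came near those of the other tissues, and duodenum 1 and 4 stood above the other 6 of those libraries. The log2 difference was 8.49 ± 1.29 against duodenum (SE, adjusted p = 0.00235, edgeR) and 12.25 ± 1.5 against liver (adjusted p = 0.00284). Without liver 2, pancreas 3 and pancreas 4 the call against liver ended.

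Pancreatic lipase itself, Pnlip (ENSMUSG00000046008), which splits dietary triglyceride, was at 391, 45.4, 166 and 165 TPM in pancreas libraries 1 to 4. Its highest value elsewhere was 0.668 TPM, in duodenum 4. Pnlip differed by 9.01 ± 0.70 on the log2 scale from duodenum (adjusted p = 1.57e-06, edgeR) and by 9.52 ± 0.72 from liver (adjusted p = 3.98e-06). The related Pnliprp1 and Pnliprp2 were lower, at means of 37.6 ± 28.9 and 8.18 ± 5.94 TPM in pancreas (SD, n = 4), and were also called against both tissues. Cel, the bile salt-activated lipase, averaged 113 ± 87.7 TPM, and Pla2g1b, the secreted phospholipase of pancreatic juice, 99.4 ± 48.6 TPM in pancreas. Each of these 6 genes of fat digestion was called higher in pancreas than in both other tissues.

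Among serine proteases of the elastase and chymotrypsin families, Cela2a (ENSMUSG00000058579), a pancreatic elastase, ranked behind Clps alone in each pancreas library. Its TPM was 1268, 251, 643 and 619 in pancreas libraries 1 to 4, against 1.03, 0.918, 0.835 and 2.66 in duodenum and 1.48, 0.877, 1.43 and 0.88 in liver. The groups did not overlap, and the log2 differences were 8.87 ± 0.60 from duodenum (SE, adjusted p = 5.03e-07, edgeR) and 9.27 ± 0.61 from liver (adjusted p = 1.49e-06). The elastase Cela3b averaged 296 ± 156 TPM and the elastase-like Cela1 281 ± 185 TPM in pancreas (SD, n = 4). Chymotrypsinogen B, Ctrb1, averaged 215 ± 128 TPM and the chymotrypsin-like Ctrl 214 ± 126 TPM. All of these were called higher against both tissues.

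Chymotrypsin C, Ctrc (ENSMUSG00000062478), which tunes the activation and breakdown of trypsinogen in humans, stood apart from its relatives. It was at 4.33, 2.04, 4.90 and 3.33 TPM in pancreas libraries 1 to 4, at 2.28, 1.83, 2.17 and 1.89 TPM in duodenum and at 1.44, 1.77, 1.98 and 1.39 TPM in liver. Pancreas 2 lay inside the duodenum range. Ctrc differed by 0.77 ± 0.27 from duodenum (adjusted p = 0.117, edgeR) and by 1.24 ± 0.28 from liver (adjusted p = 0.0477), and the call against liver ended in 18 of 24 other settings. Without pancreas 2, Ctrc was also called against duodenum.

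The 6 trypsinogen genes among the members, whose products become trypsin, covered the widest span of levels. Prss2 (ENSMUSG00000057163), a main mouse trypsinogen gene, was at 963, 129, 393 and 451 TPM in pancreas libraries 1 to 4, at 2.52, 0.161, 0.144 and 2.62 TPM in duodenum and at 0.318, 0.0515, 0.108 and 0.0488 TPM in liver. Try4 (ENSMUSG00000054106) was at 754, 133, 393 and 502 TPM in pancreas, at 0.651, 0.153, 0.143 and 0.141 TPM in duodenum and at 0.197, 0.0956, 0.12 and 0.0934 TPM in liver. Every pancreas value of both genes was above 100 TPM. Their log2 differences were 8.33 ± 1.29 and 10.61 ± 0.72 from duodenum (adjusted p = 0.00258 and 4.97e-07, edgeR) and 11.89 ± 1.5 and 11.84 ± 0.76 from liver (adjusted p = 0.0033 and 1.29e-06).

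Try5 averaged 247 ± 156 TPM, Try10 9.89 ± 6.04 TPM and Prss3 3.62 ± 4.47 TPM in pancreas (SD, n = 4), each called against both tissues. Prss3 was at 2.24, 0.611, 1.37 and 10.3 TPM in pancreas libraries 1 to 4, so that pancreas 4 and not pancreas 1 was highest. The call of Prss3 against liver ended without liver 2, pancreas 3 and pancreas 4, and with limma on log2(TPM + 1) (adjusted p = 0.0984). Prss1 (ENSMUSG00000062751), the namesake of the main human trypsinogen gene, was at 0.232, 0.109, 0.0862 and 0.331 TPM in pancreas, at 0.152, 0.318, 0.166 and 0.279 TPM in duodenum and at 0.191, 0.43, 0.252 and 0.323 TPM in liver. Those ranges overlap, and its adjusted p was 0.789 against duodenum and 0.87 against liver (edgeR). The trypsinogen genes are close copies of each other, so reads may have been split or shared among them.

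Promoter sequence is shown for Prss2 and Prss1 because these paralogs of the same locus lie near the top and at the bottom of the range of levels. Both come from RefSeq on build GRCm38.p6 and run from 250 bases before to 50 bases after the gene start, 5′ to 3′ on the plus strand (chr6:41521526-41521825 and chr6:41458680-41458979). Capitals mark matches on either strand to the TATA box letters TATAAA, to the E-box form written CACCTG, and to an element spelled TTTCCC. The matches do not overlap each other here.
Prss2: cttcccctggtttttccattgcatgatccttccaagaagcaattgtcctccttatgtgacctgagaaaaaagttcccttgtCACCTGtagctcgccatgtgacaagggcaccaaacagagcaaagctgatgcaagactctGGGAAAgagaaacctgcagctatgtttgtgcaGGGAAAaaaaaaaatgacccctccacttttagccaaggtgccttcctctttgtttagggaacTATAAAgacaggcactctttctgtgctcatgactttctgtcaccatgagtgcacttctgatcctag
Prss1: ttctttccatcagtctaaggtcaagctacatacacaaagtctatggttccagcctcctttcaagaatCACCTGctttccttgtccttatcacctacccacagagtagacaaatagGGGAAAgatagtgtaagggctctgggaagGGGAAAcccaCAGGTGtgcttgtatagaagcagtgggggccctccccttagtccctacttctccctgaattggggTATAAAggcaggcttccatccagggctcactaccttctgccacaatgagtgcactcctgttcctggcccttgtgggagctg

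TATAAA, the letters of the TATA box, begins at -16 in Prss2 and at -31 in Prss1, counted from the gene start. Counted to the letters atgagtgcac, which both sequences hold further on, TATAAA lies at the same distance in both. The positions therefore differ through where the annotation sets each gene start. CACCTG is a form of the E-box, and the acinar factor PTF1 is known to read an E-box together with a TTTCCC element. Prss2 holds CACCTG once and TTTCCC at 2 places, and Prss1 holds each at 2 places. Promoters were matched by symbol for 27 of the 34 members. Among these, 12 (44.4%) held TATAAA, 14 (51.9%) CACCTG and 11 (40.7%) TTTCCC. Of 32851 mouse promoters of the same length, 13.6%, 20.2% and 25.2% did. Some of the member promoters belong to paralogs, such as Prss1 and Prss2, so their matches need not be separate instances. Prss1 and Reg2, which were not called higher in pancreas, are counted too.

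Pancreatic amylases cut starch. Amy2a1 (ENSMUSG00000070360) was at 1099, 128, 450 and 435 TPM in pancreas libraries 1 to 4. In duodenum it was at 0.791 and 2.21 TPM in libraries 1 and 4 and had 0 counts in libraries 2 and 3. In liver 1 it was at 0.00343 TPM, under 1 estimated count, and it had 0 counts in the other liver libraries. A count of 0 allows up to 3 counts, or 0.00843 CPM (counts scaled to library size) in duodenum 2 and 0.0112 CPM in duodenum 3, and this limit covers counting error only. Amy2a1 was therefore high in all pancreas libraries, detected in 2 duodenum libraries and near 0 in liver. It was called against both tissues (adjusted p = 0.00842 and 0.00901, edgeR), although the call against liver ended without any 1 of the 4 liver libraries, and the call against duodenum ended without liver 1, without liver 2, pancreas 3 and pancreas 4, and with duodenum and pancreas fitted alone.

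Amy2a5 was at 486, 30.4, 140 and 112 TPM in pancreas libraries 1 to 4, 16.0 times as high in pancreas 1 as in pancreas 2. Amy2b was at 12.2, 1.29, 4.69 and 4.76 TPM. Both were called against both tissues, Amy2a5 by 7.90 ± 1.07 from duodenum and 9.12 ± 1.12 from liver on the log2 scale (adjusted p = 0.000942 and 0.00224, edgeR). Further copies outside the members, Amy2a2, Amy2a3 and Amy2a4, had identical TPM to each other in 12 of 12 libraries, at 131, 21.8, 65.6 and 67.9 in pancreas. Levels of single amylase copies are therefore uncertain.

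Carboxypeptidases trim amino acids from the end of peptides. Cpa1 (ENSMUSG00000054446) was at 365, 62.6, 165 and 157 TPM in pancreas libraries 1 to 4, and Cpb1 at 97.7, 10.6, 40.9 and 46.9 TPM. Their means were 0.259 and 0.218 TPM in duodenum and 0.207 and 0.251 TPM in liver. Cpa1 differed by 9.40 ± 0.66 from duodenum (SE, adjusted p = 6.64e-07, edgeR) and Cpb1 by 7.69 ± 0.63 (adjusted p = 2.35e-06). Rnase1, the pancreatic ribonuclease, averaged 231 ± 135 TPM in pancreas, 0.41 ± 0.217 TPM in duodenum and 0.188 ± 0.0872 TPM in liver (SD, n = 4 each).

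Proteins of the granule and its membrane followed the enzymes. Sycn, which encodes the granule protein syncollin, averaged 208 ± 142 TPM in pancreas, 0.389 ± 0.418 TPM in duodenum and 0.112 ± 0.101 TPM in liver (SD, n = 4 each). Zg16, a granule lectin that goblet cells of the intestine also make, averaged 161 ± 109 TPM in pancreas, 1.63 ± 0.896 TPM in duodenum and 1.55 ± 0.402 TPM in liver. Gp2, the main protein of the granule membrane and also a receptor of intestinal M cells, averaged 5.99 ± 4.39 TPM in pancreas. Cuzd1, another zymogen granule membrane protein, averaged 2.33 ± 1.96 TPM. All 4 were called higher in pancreas against both tissues, Zg16 by 6.52 ± 0.58 and 6.75 ± 0.59 on the log2 scale (adjusted p = 5.43e-06 and 1.65e-05, edgeR). Without liver 2, pancreas 3 and pancreas 4 the call of Cuzd1 against liver ended, as did that of Amy2a5 and Prss2.

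Spink1, an inhibitor that guards acinar cells against stray trypsin, was at 35.9, 8.80, 16.8 and 16.9 TPM in pancreas libraries 1 to 4, and no library of the other tissues passed 0.162 TPM. Its log2 difference was 8.22 ± 0.71 from duodenum (adjusted p = 4.13e-06, edgeR) and 7.72 ± 0.69 from liver (adjusted p = 2.08e-05). The trypsinogens among the members together stood at 59.7, 36.7, 58.8 and 77.4 times the TPM of Spink1 in pancreas libraries 1 to 4. That sum leaves out trypsin-like genes outside the members, such as 2210010C04Rik. Tmprss15, which encodes enterokinase, was at most at 0.126 TPM in the 12 libraries. Ctsb, encoding the lysosomal protease cathepsin B that can cut trypsinogen, was at 92.7, 104, 103 and 82.6 TPM in pancreas and passed the test in neither comparison (adjusted p = 0.27 against duodenum and 0.984 against liver).

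The secreted lectin-like Reg proteins differed sharply. Reg1 (ENSMUSG00000059654) was at 155, 21.9, 94.3 and 75.5 TPM in pancreas libraries 1 to 4, at 0.583, 0.103, 0.108 and 0.775 TPM in duodenum and at 0.177, 0.227, 0.126 and 0.162 TPM in liver. Reg2 (ENSMUSG00000023140) was at 23.2, 16.8, 13.8 and 18.9 TPM in pancreas, at 12.8, 19.4, 10.7 and 10.4 TPM in duodenum and at 16.8, 18.2, 16.4 and 18.2 TPM in liver. Reg1 separated pancreas from the rest, while Reg2 was present at like levels everywhere and overlapped between tissues. Reg1 was called by 7.67 ± 0.78 against duodenum and 9.03 ± 0.83 against liver (adjusted p = 1.87e-05 and 2.9e-05, edgeR). Reg2 had adjusted p = 0.292 and 0.958.

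The promoters of these neighbouring paralogs are shown with the same marks, from RefSeq on GRCm38.p6, plus strand (chr6:78425733-78426032 for Reg1 and chr6:78404905-78405204 for Reg2).
Reg1: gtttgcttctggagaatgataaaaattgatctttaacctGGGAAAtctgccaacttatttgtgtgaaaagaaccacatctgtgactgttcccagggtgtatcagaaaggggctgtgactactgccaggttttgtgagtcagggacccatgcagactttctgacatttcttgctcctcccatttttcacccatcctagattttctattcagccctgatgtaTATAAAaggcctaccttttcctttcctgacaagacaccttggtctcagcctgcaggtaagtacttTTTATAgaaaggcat
Reg2: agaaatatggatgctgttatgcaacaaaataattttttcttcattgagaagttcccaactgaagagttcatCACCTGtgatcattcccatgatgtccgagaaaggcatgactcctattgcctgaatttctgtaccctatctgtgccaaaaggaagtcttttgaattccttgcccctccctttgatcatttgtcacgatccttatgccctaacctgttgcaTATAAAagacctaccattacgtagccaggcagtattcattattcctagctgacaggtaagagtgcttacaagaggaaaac
Both hold TATAAA at -30, and Reg1 also holds it at 35 on the minus strand. TTTCCC was found in the Reg1 window and CACCTG in the Reg2 window.

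Nupr1, a stress-induced chromatin protein of acinar and many other cells, averaged 65.1 ± 40.8 TPM in pancreas, 2.91 ± 0.722 TPM in duodenum and 2.30 ± 0.879 TPM in liver (SD, n = 4 each). It was called against both tissues, with log2 differences of 4.39 ± 0.39 and 4.88 ± 0.40 (adjusted p = 5.76e-06 and 1.01e-05, edgeR). Klk1, tissue kallikrein, was at 58.0, 11.7, 21.7 and 25.9 TPM in pancreas libraries 1 to 4, at 6.85, 4.46, 6.89 and 5.07 TPM in duodenum and at 2.05, 0.0507, 0.0337 and 6.49 TPM in liver. Every pancreas value of Klk1 exceeded all others, but its liver libraries split into 2 high and 2 near 0. The differences of 2.21 ± 1.18 and 3.85 ± 1.27 did not pass (adjusted p = 0.362 and 0.3). With duodenum and pancreas fitted alone the difference was 2.22 ± 0.40 and passed (adjusted p = 0.00589, edgeR), and DESeq2 and limma called Klk1 against liver.

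Tff2, a trefoil peptide that protects mucus-lined surfaces of stomach and duodenum, was the 1 member called between duodenum and liver. There 3.95% of all genes were called higher in duodenum and 3.37% lower, 7.32% in either direction. At the looser threshold of an unadjusted p under 0.05, 8 members were higher and 1 lower. The share of all genes at that threshold was not computed, so these counts cannot be set against the shares above. Tff2 was at 71.2, 17.3, 35.7 and 26.9 TPM in pancreas libraries 1 to 4, at 6.20, 6.91, 10.6 and 2.49 TPM in duodenum and at 0.183, 0.0299, 0.259 and 0.116 TPM in liver. The tissues formed 3 steps that did not overlap. The log2 difference was 2.43 ± 0.52 for pancreas against duodenum (SE, adjusted p = 0.00851, edgeR), 8.04 ± 0.69 for pancreas against liver (adjusted p = 1.42e-05) and 5.61 ± 0.63 for duodenum against liver (adjusted p = 6.77e-05). Without duodenum 1 and 4 the call of pancreas against duodenum ended.

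**Figure D2:**
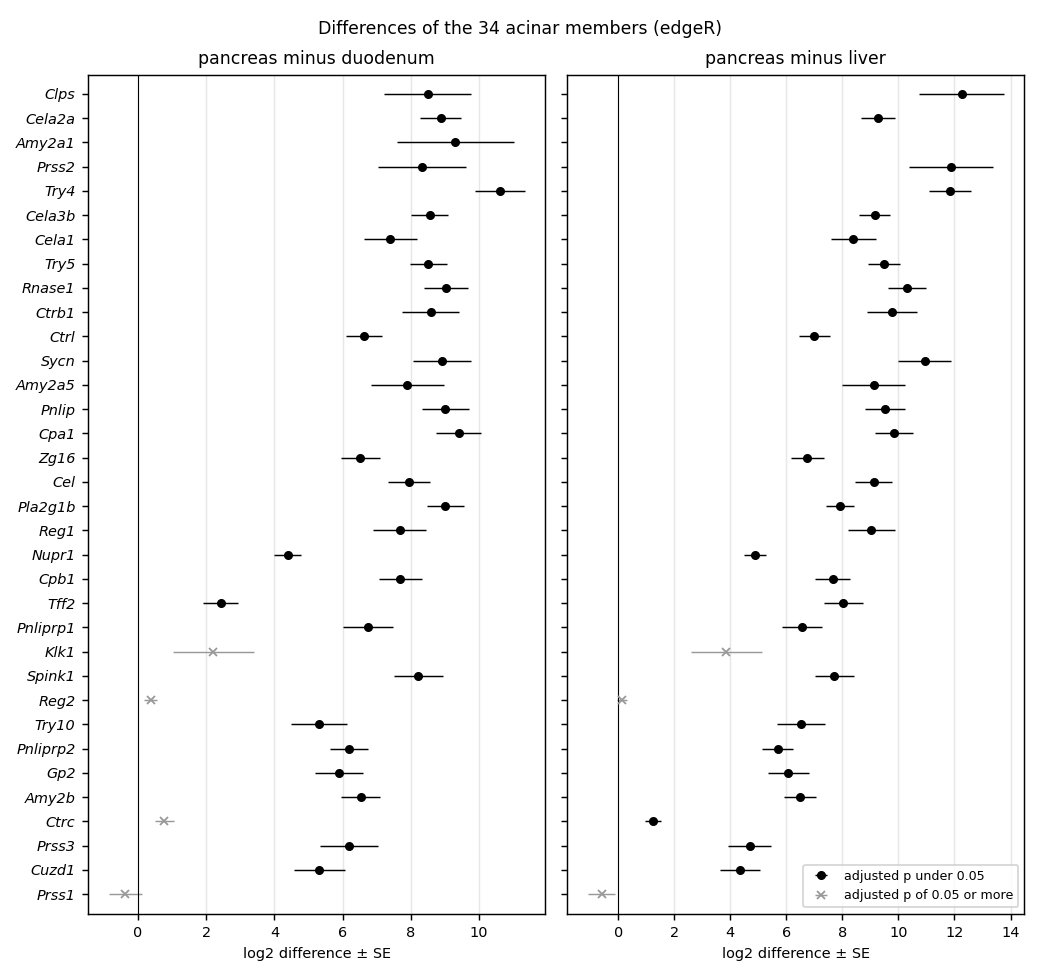
Log2 differences ± SE from edgeR for the members, pancreas minus duodenum on the left and pancreas minus liver on the right, in the row order of the TPM plot. Filled points passed the test and crosses did not, and Amy2a1 has no point on the right because liver held under 1 estimated count.

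Beyond Tff2, traces of the enzymes in duodenum were uneven between libraries. Duodenum 1 and 4 were both above duodenum 2 and 3 for 10 of 34 members and for 8.89% of all genes tested. Those members were Clps, Prss2, Amy2a1, Cela1, Cela2a, Ctrb1, Pnlip, Reg1, Gp2 and Rnase1. Duodenum 4 was the highest of the 8 duodenum and liver libraries for 16 members, a count for which no share over all genes was computed. Among members other than Tff2, edgeR called 0 between duodenum and liver, where the median log2 difference was 0.50 over the members and -0.10 over all genes. Clps came nearest, at 3.76 ± 1.13 (adjusted p = 0.0784, edgeR), then Amy2a1 (adjusted p = 0.0833) and Prss2 (adjusted p = 0.1). DESeq2 called these 3 genes, Cel and Rnase1 besides Tff2. Without duodenum 2, edgeR called the same 3 and Tff2, without duodenum 3 Amy2a1 and Tff2, and without pancreas 2 Try5 and Tff2. Tff2, Klk1 and Reg2 were among the members in which duodenum 1 and 4 were not both above duodenum 2 and 3. Duodenum 4 was the lowest duodenum library for Tff2 and Reg2, and duodenum 3 the highest for Klk1.

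**Figure D3:**
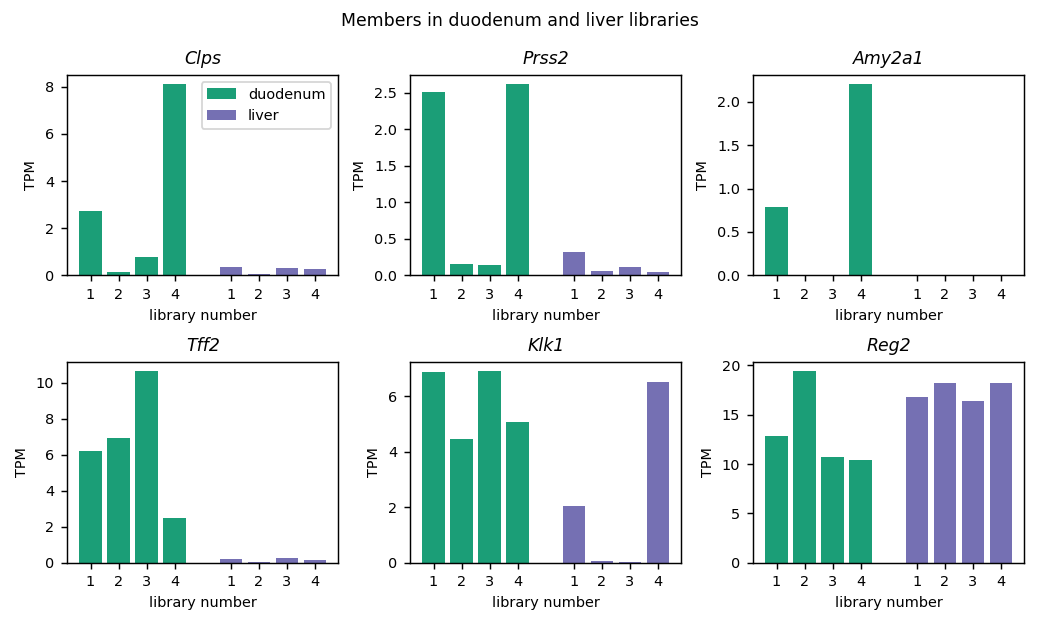
TPM of 6 members in the duodenum and liver libraries, 1 bar per library and a separate linear axis per gene. Clps, Prss2 and Amy2a1 are highest in duodenum 1 and 4, Tff2 is high in all duodenum libraries and Reg2 is similar in all 8.

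Within the pancreas libraries most members held a steadier share of the member sum than the sum itself held of the library. Pancreas 1 was the highest library for 31 members and pancreas 2 the lowest for 32. Each member's share of the member sum was followed by its SD on the log2 scale over the 4 libraries, which had a median of 0.26, while the sum itself had an SD of 1.04. Of the 34 members, 25 had an SD of at most 0.35 and 9 a larger one.

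The steadiest were Zg16, Cpa1, Sycn and Cela2a, with SDs of 0.05, 0.07, 0.08 and 0.09. Cpa1 was 1.17, 1.21, 1.15 and 1.13 times Zg16 in pancreas libraries 1 to 4, and Pnlip 5.01, 4.8, 5.59 and 4.98 times Pnliprp1. These ratios of TPM moved far less than the 5.77-fold range of the sum.

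Other ratios drifted. Clps was 6.04, 10.9, 5.73 and 5.51 times Pnlip, highest in pancreas 2, where the sum was lowest. Amy2a5 was 0.443, 0.236, 0.312 and 0.256 times Amy2a1. Amylases took 13.2%, 7.63%, 10.8% and 9.67% of the member sum in pancreas libraries 1 to 4, and trypsinogens 17.7%, 15.4%, 18.0% and 22.9%. Amylase thus had its largest share in the library with the most acinar RNA and its smallest in the one with the least, whereas trypsinogens were largest in pancreas 4.

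Prss3 had the largest SD of share, 1.48, at 0.00297, 0.00458, 0.0035 and 0.0204 times Try4 in pancreas libraries 1 to 4. Try5 was 0.541, 0.431, 0.481 and 0.667 times Try4. A pair of trypsinogen-like genes outside the members had their highest level in the same library, Gm5771 at 2.42, 1.02, 0.69 and 14.9 TPM and Gm10334 at 0.396, 0.419, 0.368 and 1.79 TPM, of which Gm10334 was named after its values were seen. The trypsin-like 2210010C04Rik was highest in pancreas 1, at 239 TPM, against 111 TPM in pancreas 4. Prss1, Reg2 and Ctrc followed with SDs of 0.97, 0.89 and 0.66. Reg1 was 6.67, 1.31, 6.86 and 4.00 times Reg2.

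**Figure D4:**
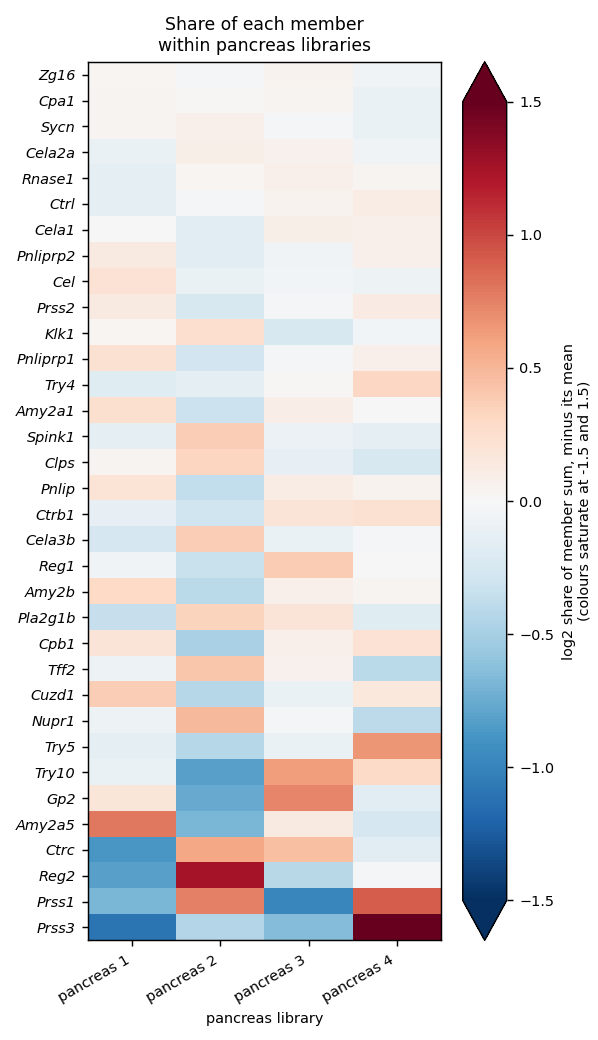
Log2 share of each member in the summed member TPM of a pancreas library, minus that member's mean over the 4 libraries, with rows from the steadiest to the most variable share. Zg16, Cpa1 and Sycn are near white throughout, Amy2a5 is highest in pancreas 1, Reg2 in pancreas 2 and Prss3 in pancreas 4.

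Further acinar products outside the members behaved in part alike. Of 16 listed genes, 8 were higher and 0 lower in pancreas against duodenum, the same counts held against liver, and 7 were called against both. 2210010C04Rik, a trypsin-like gene, was at 239, 60.7, 116 and 111 TPM in pancreas libraries 1 to 4, and Pdia2, a disulfide isomerase of the pancreas, at 15.8, 3.02, 6.33 and 11.2 TPM. Tmed6, Serpini2, Dmbt1 and Gm5771 were also called against both, each with a pancreas mean under 5 TPM. Reg3a, Reg3b, Reg3d and Reg3g, relatives of Reg1, were not called against both.

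Transcription factors and receptors of acinar cells were near 0. Of 10 listed genes, 9 were under 1 TPM in all 4 pancreas libraries. Ptf1a, the factor that sets acinar fate, was at 0.468, 0.00841, 0.593 and 0.257 TPM in pancreas. It was at most at 0.0589 TPM in duodenum and 0.0931 TPM in liver. Its log2 differences, 3.10 ± 0.95 from duodenum and 3.05 ± 0.95 from liver, did not pass (adjusted p = 0.0644 and 0.211, edgeR). Rbpjl, its partner, was at 0.263, 0.106, 0.11 and 0.205 TPM in pancreas, overlapping liver at 0.119 to 0.26 TPM. Cckar, the receptor for the hormone that triggers enzyme release, was called against duodenum (1.40 ± 0.36, adjusted p = 0.0265, edgeR) but not liver. Bhlha15, a factor of secretory cells, was called against liver (1.34 ± 0.27, adjusted p = 0.026, edgeR) but not duodenum. Its mean was highest in duodenum, at 0.622 TPM, against 0.371 TPM in pancreas and 0.155 TPM in liver.

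Genes with a pattern most like the members were sought among 240 others that had a pancreas mean of at least 10 TPM and all pancreas libraries above the rest. Likeness was the SD over the 4 pancreas libraries of the log2 ratio to the member sum, which would be 1.04 for a gene that did not vary. Amy2a2, Amy2a3 and Amy2a4 came first at 0.10, and 2210010C04Rik had 0.27. Mt2, a metallothionein that binds zinc, had 0.39, with 35.9, 11.5, 26.4 and 22.0 TPM in pancreas libraries 1 to 4, and Ccl6, a chemokine of myeloid cells, had 0.67 and Phlda1 0.72.

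Genes listed for other pancreatic cells showed different patterns. Of 13 islet genes only Ins2 and Ins1, which encode insulin, were called higher in pancreas against both tissues. Ins2 was at 12.4, 23.2, 21.6 and 22.5 TPM in pancreas libraries 1 to 4, against at most 0.514 TPM elsewhere, and was lowest in pancreas 1, where acinar transcripts were highest. Of 8 duct genes 1 was called, Krt7 against duodenum, and 6 were under 1 TPM in all pancreas libraries. Of 7 epithelial, 16 intestinal, 8 stromal, 6 endothelial, 8 macrophage, 8 plasma cell, 6 mast cell and 6 erythroid genes, edgeR called 0 higher in pancreas than in both tissues, and of 10 hepatocyte genes 1, Trf, which encodes transferrin. Igha, an immunoglobulin gene of the plasma cell list, differed in pancreas by -11.05 ± 0.93 from duodenum (log2, adjusted p = 2.07e-05, edgeR) and by 3.93 ± 0.73 from liver (adjusted p = 0.0248). Its level was 0.314 to 3.57 TPM in pancreas, 3207 to 5155 TPM in duodenum and 0.0535 to 0.204 TPM in liver. None of the listed genes was at 0 in all pancreas libraries.

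The immunoglobulin gene Igkc was at 0.457, 1.25, 1196 and 1358 TPM in pancreas libraries 1 to 4, at 5335 to 8895 TPM in duodenum and at 0.112 to 1277 TPM in liver, and Dcn, a matrix gene of fibroblasts, at 0.35, 0.378, 11.5 and 12.9 TPM in pancreas. The summed stroma list was at 2.33 to 22.0 TPM in pancreas, 2.30 to 4.39 TPM in duodenum and 1.97 to 3.96 TPM in liver. Both genes set pancreas 3 and 4 apart. In liver, Igkc set liver 2 apart, at 1277 TPM against 2.73, 0.112 and 0.228 TPM in liver 1, 3 and 4. Liver 2, pancreas 3 and pancreas 4 are the libraries left out together in a setting named above. In acinar sum pancreas 3 and 4 lay between pancreas 1 and 2. Epcam, an epithelial adhesion gene that DCs also express, was at 26.6, 26.7, 26.3 and 21.1 TPM in pancreas, at 10.1 to 23.3 TPM in duodenum and at 2.45 to 4.91 TPM in liver. The part of other cells in the acinar result was not tested.

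**Figure D5:**
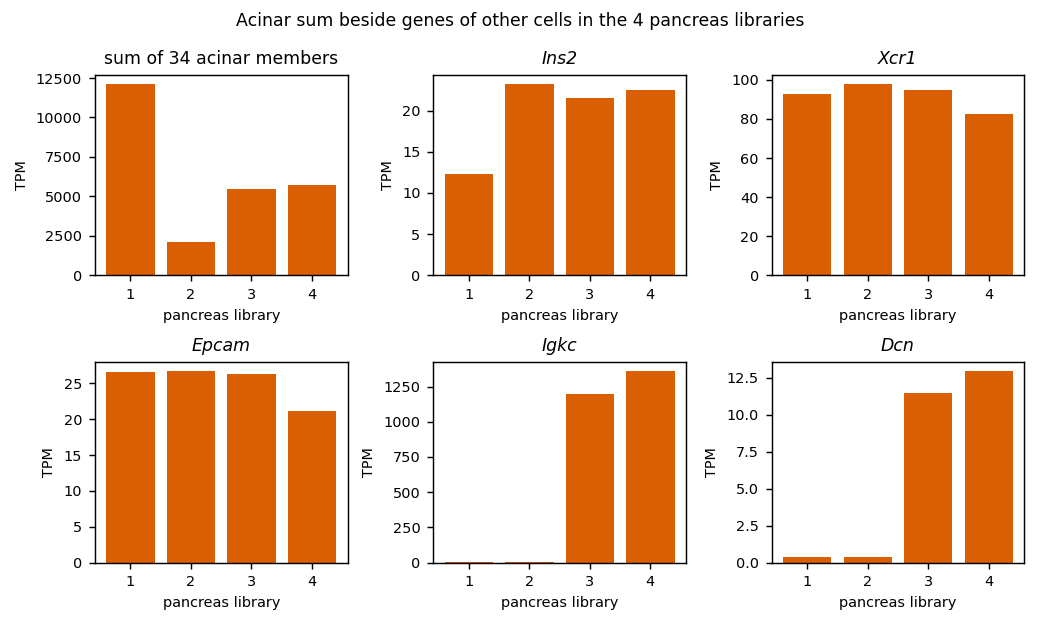
Summed TPM of the 34 acinar members beside 5 genes of other cells in the 4 pancreas libraries, 1 bar per library and a separate linear axis per panel. The acinar sum is highest in pancreas 1 and lowest in pancreas 2, Ins2 is lowest in pancreas 1, and Igkc and Dcn are high in pancreas 3 and 4.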

How the data were processed

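PolyA RNA of sorted DCs from pancreas, duodenum and liver was analysed, with 4 libraries a tissue. The submitters' processing notes name kallisto and build GRCm39. The sources used here give no annotation release or strand setting. A table of TPM and a table of estimated counts were deposited by the authors. For 12632 genes the log2 of count over TPM was the sum of a gene value and a library value, with a largest deviation of 1.06e-09. Value columns without a sample numbered 0.

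Rounded counts entered edgeR 4.0.16 (R 4.3.3) with filterByExpr at a minimum count of 10, TMM scaling and a robust quasi-likelihood fit of the 12 libraries without a block, which kept 44624 genes and all 34 members. The SE is the absolute log2 difference over the square root of F. Adjusted p-values are Benjamini-Hochberg values over all genes kept, from tests whose error term comes from the spread between pools of mice. Alternatives were limma 3.58.1 on log2(TPM + 1) or log2(TPM + 0.1), DESeq2 1.42.0, other scalings and filters, libraries left out and a replicate block. The fit was tested on simulated data. Members and lists were chosen with earlier results of these data known. The rule for naming genes took all members, the 3 highest genes of each list and any called in both comparisons, and the 8 genes most like the members. A gene that this rule names is not reported here. Many of the 3 highest genes of the lists are also not named. Genes outside the rule, such as Xcr1, Ptf1a, Rbpjl and Tmprss15, were named after their values were seen. Promoters came from RefSeq on GRCm38.p6, and no other coordinates are given, since the builds differ.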

Additional observations from a re-analysis of the deposited data

Results flagged for a closer look

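Of 105 sets of 4 libraries (34 members and their sum, in 3 tissues), 7 held 1 library far from the other 3, against about 1 in 20 by chance. In pancreas this was Prss3 in pancreas 4 at 10.3 TPM. In duodenum these were Cela2a at 2.66 TPM and Sycn at 1.02 TPM, both in duodenum 4, Try4 at 0.651 TPM in duodenum 1, and Spink1 at 0.162 TPM in duodenum 2. In liver this was Rnase1, low at 0.0581 TPM in liver 4. Amy2a1 is counted among the 7 with 0.00343 TPM in liver 1, but this is under 1 estimated count and the other 3 liver libraries were at 0, so any value above 0 would have stood out.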

How the results depend on the processing

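Over 24 alternatives, 29 to 31 members were higher in pancreas than in duodenum and 24 to 32 higher than in liver, and 0 were lower in any. Leaving out 1 library at a time gave 29 to 31 in both comparisons and 1 to 4 for duodenum against liver. The fewest against liver, 24, came without liver 2, pancreas 3 and pancreas 4, which leaves 2 pancreas libraries. For duodenum against liver, the 1 call with all libraries became 6 with DESeq2, 3 with a mean of at least 1 CPM and 2 with the replicate block; the cause was not tested. Same-numbered libraries had correlations of deviations from tissue means of -0.122 to 0.143, so the numbers were not taken as pairs. The block gave 30 members in each pancreas comparison and ended the call of Ctrc against liver. Prss3 was not tested under the mean of at least 1 CPM. With library totals the median over all genes for duodenum against liver was -0.25, against -0.10. The share of all genes called ran from 3.54% to 26.5% against duodenum and 0.375% to 5.42% against liver. Sums of CPM in place of TPM were 4731 in pancreas, 31.0 in duodenum and 21.8 in liver. Without the same 7 members that other tissues also make, which do not include Reg2, sums were 5803, 31.4 and 27.8 TPM. Leaving out 1 library gave 4432 to 7771 TPM in pancreas, 46.5 to 51.5 in duodenum and 33.3 to 35.7 in liver. Leaving out duodenum 1 and 4 was chosen after seeing the data. Depth limits the lowest levels, since 3 counts were 0.00843 to 0.0136 CPM.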
